A study of Mus musculus with 3 samples.

Results

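Selenoproteins are enzymes and carriers that hold the amino acid selenocysteine, and 9 of their genes were followed here in normal mouse liver: Selenop, Gpx1, Gpx4, Dio1, Selenof, Selenok, Selenot, Selenow and Txnrd1. The genes were chosen by name, and every table row that carried the Ensembl identifier of one of them was taken. All 9 were listed in each of the 3 libraries, among 12628 genes with a value, and they held 40, 47 and 44 of the listed events in replicates 1, 2 and 3. The libraries were made from liver of mice labelled wild type, male, healthy and C57BL/6, with no treatment or age given, and they form the only group analysed here, the normal liver side of a study of hepatocellular carcinoma. Whether the replicates came from separate animals is not stated, so their spread may be technical in part. Every value below is an FPKM, a fragment number scaled to transcript length and library size, so that levels can be set beside each other between genes.

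Selenocysteine is written in the messenger RNA by UGA, a codon that otherwise stops translation. It is read as selenocysteine when a hairpin in the 3′ untranslated region, the SECIS element, brings in SECISBP2 and the elongation factor EEFSEC with a dedicated transfer RNA. The liver takes up selenium from food, builds it into its own enzymes and exports the rest in selenoprotein P, the product of Selenop, from which brain, testis and kidney are supplied. The glutathione peroxidases Gpx1 and Gpx4 reduce hydroperoxides, Txnrd1 reduces thioredoxin, Dio1 deiodinates thyroxine, Selenof, Selenok and Selenot are proteins of the endoplasmic reticulum, and Selenow is a small protein of the cytosol with a thioredoxin-like fold.

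The selenocysteine codons are shown because they define these genes and because some of the listed events keep or remove the exon that holds one. In the GENCODE M21 transcripts (GRCm38), the 9 genes held 18 in-frame TGA codons annotated as selenocysteine. Selenop held 10 of them and each of the other 8 genes held 1. In each line below the codon stands in capitals between up to 15 coding bases on either side, with its residue number and its position. Only the first and the last codon of Selenop are given.
Selenop, residue 59 (chr15:3274848-3274850, plus strand): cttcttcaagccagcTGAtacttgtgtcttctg
Selenop, residue 377 (chr15:3279696-3279698, plus strand): accaggaagtgaaaaTGAcattcaaac
Gpx1, residue 47 (chr9:108339451-108339453, plus strand): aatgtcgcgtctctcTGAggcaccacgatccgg
Gpx4, residue 73 (chr10:80054737-80054739, plus strand): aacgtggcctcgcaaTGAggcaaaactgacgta
Dio1, residue 126 (chr4:107297700-107297702, minus strand): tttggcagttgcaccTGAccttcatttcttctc
Selenof, residue 93 (chr3:144590645-144590647, plus strand): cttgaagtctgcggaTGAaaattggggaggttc
Selenok, residue 92 (chr14:29973440-29973442, plus strand): ccaatggctggtggaTGAggaagg
Selenot, residue 49 (chr3:58585238-58585240, plus strand): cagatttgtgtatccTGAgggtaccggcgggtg
Selenow, residue 13 (chr7:15920464-15920466, minus strand): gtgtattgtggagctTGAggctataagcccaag
Txnrd1, residue 498 (chr10:82896037-82896039, plus strand): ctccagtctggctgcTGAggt

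The place of the codon in the protein differed between the genes. Selenow had its codon near the start, at residue 13 of 88, whereas Txnrd1 had it at residue 498 of 499 and Selenok at residue 92 of 94. In Gpx1, Gpx4, Dio1, Selenof and Selenot it lay further inside, as at residue 126 of 257 in Dio1. Of the 10 codons of Selenop, 9 lay in the last exon, between residues 259 and 377 of 380. The base after the codon was G in 8, C in 6, A in 3 and T in 1 of the 18 cases.

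**Figure D1:**
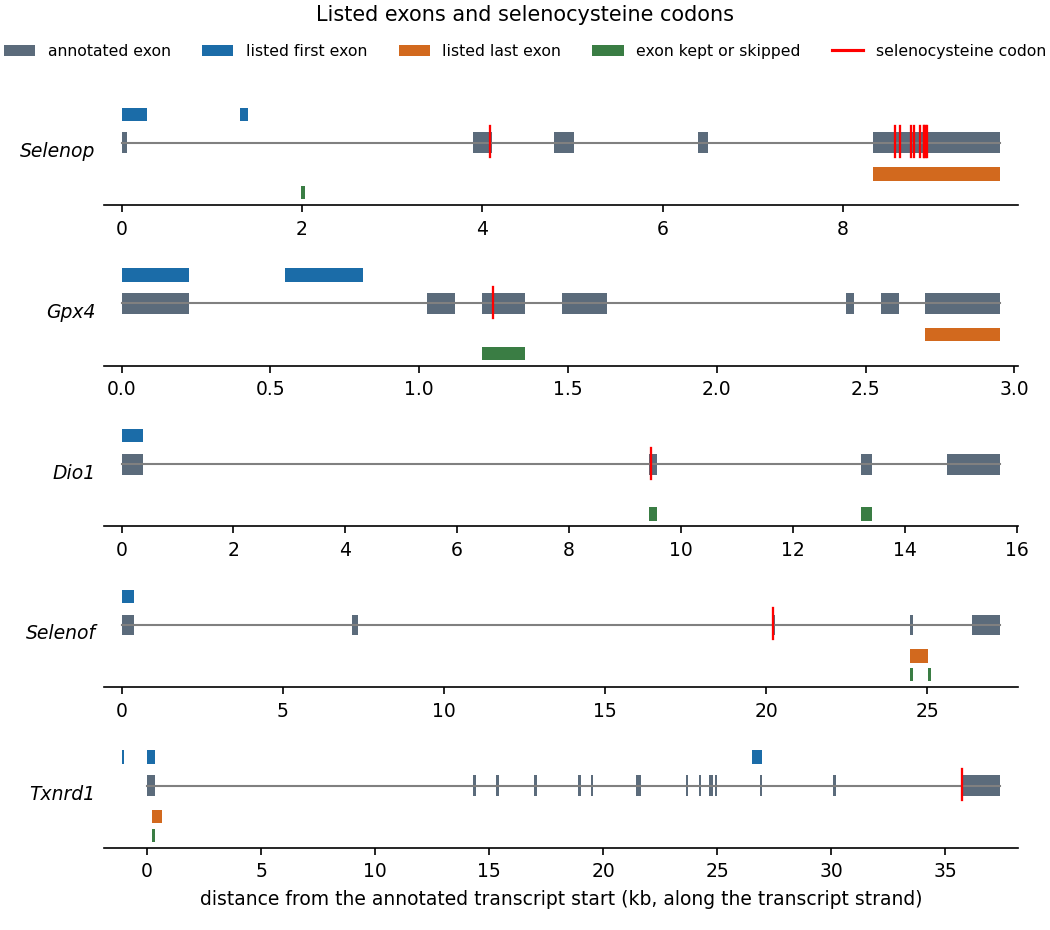
Exon maps of 5 of the genes, with the distance from the start of the annotated transcript in kb along its strand. Grey boxes are annotated exons, blue, orange and green boxes are the first exons, last exons and exons of skipping events listed in any library, and red lines are selenocysteine codons. Of the exons in green, those of Gpx4 and Dio1 that lie under a red line hold a selenocysteine codon.

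The libraries were checked first. They held 71716, 74243 and 74236 different events, and all 131 listed events of the 9 genes lay inside the annotated gene on its own strand. All 7 hepatocyte markers were at 1 FPKM or more, with summed levels of 35699 to 40995 FPKM, while of 4 kidney markers only Lrp2 was listed, at 0.428 FPKM in replicate 2. The hepatocyte marker Ttr had no event inside its annotated gene by position and was counted by its identifier. The libraries did not match their label in sex: Xist, made in female cells, had 65.7, 53.9 and 46.4 FPKM, and Uty, Ddx3y, Eif2s3y and Kdm5d of the Y chromosome had no listed event. In whole liver, a larger share of 1 cell type and more RNA per cell cannot be told apart.

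The 9 genes spanned more than 2 orders of magnitude and together made up 1.48% ± 0.028 of the summed gene-level FPKM (SD, n = 3). Selenop, the exported selenium carrier, held 62.4% of their sum, and Gpx1, the peroxidase of the cytosol, held 28.1%. The remaining 7 genes lay between 20.4 and 117 FPKM on average. All 9 genes averaged 1 FPKM or more, as did 73.7% of all genes with a value.

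Selenop (ENSMUSG00000064373, chromosome 15, 3268547 to 3280508, plus strand) had 2931, 3048 and 3004 FPKM in replicates 1, 2 and 3, a mean of 2994 ± 59.3 (SD, n = 3). It ranked 10th of the 12628 genes with a value, counted by identifier. Such ranks can miss a gene: Serpina1a, at 2589 FPKM by position, had no value under its own identifier. Gpx1 (ENSMUSG00000063856, chromosome 9, 108338903 to 108340343, plus strand) had 1333, 1354 and 1361 FPKM, a mean of 1350 ± 14.9 (SD, n = 3), and ranked 31st. These levels, which are first exon sums, hardly differed between libraries, with a highest value only 1.04 times the lowest for Selenop and 1.02 times for Gpx1. Last exons differed more, with 2297, 2131 and 2704 FPKM for Selenop and 190, 203 and 213 FPKM for Gpx1. Selenop exceeded Gpx1 in 3 of 3 libraries, by 1.15 ± 0.018 on the log2(FPKM + 1) scale.

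Gpx4 (ENSMUSG00000075706, chromosome 10, 80047166 to 80056439, plus strand) encodes the peroxidase that reduces lipid hydroperoxides in membranes and so protects cells from ferroptosis. It had 161, 92.2 and 97.8 FPKM, a mean of 117 ± 38.4 (SD, n = 3), with replicate 1 above the other two. Gpx1 exceeded it by 3.56 ± 0.46 log2 units, in 3 of 3 libraries. Txnrd1 (ENSMUSG00000020250, chromosome 10, 82833951 to 82897712, plus strand), the cytosolic thioredoxin reductase, was the lowest of the 9 at 22.8, 13.6 and 24.8 FPKM, a mean of 20.4 ± 5.99 (SD, n = 3), with replicate 2 below the other two.

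Dio1 (ENSMUSG00000034785, chromosome 4, 107291465 to 107307169, minus strand) encodes the deiodinase that liver uses to turn thyroxine into the active hormone. It varied most of the 9, with 43.8, 74.3 and 30.0 FPKM and a mean of 49.3 ± 22.7 (SD, n = 3). Replicate 2 was 2.48 times replicate 3. Erythroid markers, all 5 of 5 at 1 FPKM or more, also had their highest sum in replicate 2, with 382, 1033 and 308 FPKM. The globin genes made up most of this sum, as with Hbb-bs at 142, 425 and 110 FPKM by position. Alas2, which is not a globin, was highest in replicate 1, with 12.3, 10.7 and 9.99 FPKM. The part of erythroid cells in the Dio1 values was not tested.

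Among the genes of the endoplasmic reticulum, Selenof (ENSMUSG00000037072, chromosome 3, 144570304 to 144597680, plus strand), a partner of the glycoprotein quality control enzyme UGGT, had 94.2, 61.8 and 88.9 FPKM, a mean of 81.7 ± 17.4 (SD, n = 3). Selenok (ENSMUSG00000042682, chromosome 14, 29968308 to 29975662, plus strand), a membrane protein that takes part in protein degradation and palmitoylation, had 68.2, 50.5 and 49.4 FPKM, a mean of 56.0 ± 10.6 (SD, n = 3). Selenot (ENSMUSG00000075700, chromosome 3, 58576636 to 58593133, plus strand), a protein with a thioredoxin-like fold, had 34.6, 38.1 and 42.8 FPKM, a mean of 38.5 ± 4.08 (SD, n = 3). Selenof was lowest in replicate 2 by its larger form, though highest there, at 102 FPKM, when both listed forms were summed, Selenok stood apart in replicate 1, and the Selenot values lay close together.

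Selenow (ENSMUSG00000041571, chromosome 7, 15917208 to 15922402, minus strand) had 120, 88.5 and 75.4 FPKM, a mean of 94.5 ± 22.7 (SD, n = 3). Its highest value was in replicate 1, as were those of Gpx4 and Selenok. Selenof was also highest there, but in replicate 2 when both forms of its alternative exon were summed. By the main value, 4 of the 9 genes were highest and 3, Selenop, Gpx1 and Selenot, were lowest in replicate 1. The summed cholangiocyte markers were also highest there, with 79.2, 33.9 and 37.7 FPKM, of which Spp1 made up 75.5, 31.5 and 35.5 FPKM, and 2 of 5 of these markers reached a mean of 1 FPKM. The 6 Kupffer cell markers, all averaging 1 FPKM or more, were lowest there, with 84.9, 133 and 121 FPKM in sum. The part of either cell type in these values was not tested.

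**Figure D2:**
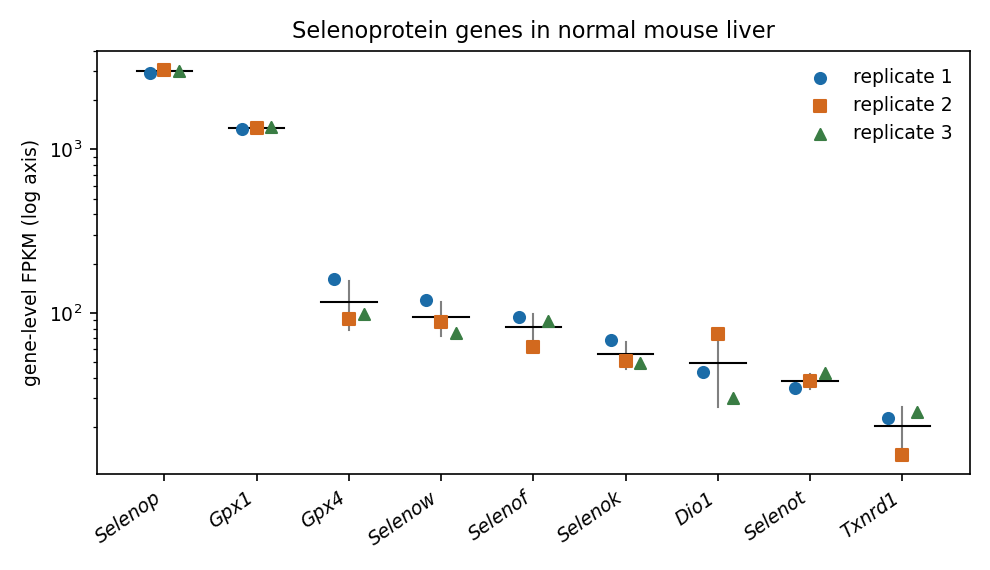
Gene-level FPKM of the 9 genes on a log axis, with 1 symbol for each of the 3 libraries, a horizontal line at the mean and a vertical line of 1 SD to each side. Selenop and Gpx1 lay between 1333 and 3048 FPKM, and the other 7 genes lay between 13.6 and 161 FPKM.

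By mean level the order was Selenop, Gpx1, Gpx4, Selenow, Selenof, Selenok, Dio1, Selenot and Txnrd1. Of the 8 pairs of neighbours in this order, 5 differed by more than the SD of their difference within libraries, and 3 of these, Selenop over Gpx1, Gpx1 over Gpx4 and Selenot over Txnrd1, did not overlap between libraries. Gpx4 exceeded Selenow by 0.29 ± 0.20 and Selenof exceeded Selenok by 0.53 ± 0.28 log2 units, each in 3 of 3 libraries but with overlapping values. Selenow and Selenof (0.21 ± 0.39), Selenok and Dio1 (0.26 ± 0.70) and Dio1 and Selenot (0.26 ± 0.72) did not differ beyond their spread. No test of these differences was made, since an exact sign-flip test of 3 libraries cannot give a two-sided p below 0.25.

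The spread between libraries was uneven within the family. The SD of log2(FPKM + 1) was 0.016 for Gpx1 and 0.029 for Selenop, both from their first exon sums. Of the 3227 genes that averaged 10 FPKM or more, 0.682% and 1.80% had a smaller SD. For Dio1 it was 0.64, and 94.9% of those genes had a smaller one, against 87.8% for Txnrd1 at 0.45 and 87.4% for Gpx4 at 0.44. The median over the 9 genes was 0.33, beside 0.20 over those 3227 genes and 0.21 over the 9306 genes that averaged 1 FPKM or more. Without replicate 1 the median over the 9 genes was 0.11, and without replicate 2 it was 0.21. With last exons alone it was 0.15, and with both forms of an event summed 0.26. The value of 0.15 counts Dio1, with no listed last exon, as 0 and takes in Selenof and Txnrd1 near 0 FPKM. Medians over all genes were not computed in these settings, so these values cannot be set beside 0.20 and 0.21.

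**Figure D3:**
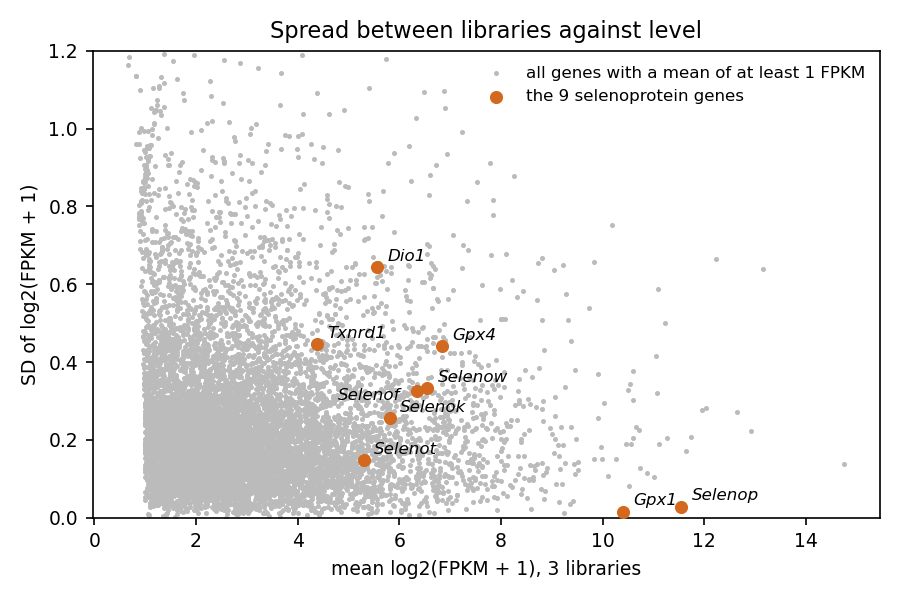
SD of log2(FPKM + 1) over the 3 libraries against its mean, with 1 grey point per gene that averaged 1 FPKM or more and the 9 selenoprotein genes in orange. Selenop and Gpx1 lie at the bottom right, Dio1 is the highest of the 9, and 89 genes lie above the upper limit of the vertical axis at 1.2.

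Although the summed first exon level of Selenop was steady, the first exons that made it up were not. Replicates 1 and 2 carried mostly a 59-base first exon (3270767 to 3270825), with 2297 and 2131 FPKM, and this exon was not listed in replicate 3. A 286-base first exon with the same start (3270767 to 3271052) had 632, 910 and 2707 FPKM in replicates 1, 2 and 3, or 21.6, 29.9 and 90.1% of the first exon sum. The 2 forms differ in the splice site at the end of the exon and not in the start of transcription, and in annotated transcripts with either splice site the coding sequence begins in a later exon.

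Minor first exons of Selenop were also most abundant in replicate 3. An 83-base exon further downstream (3272085 to 3272167) had 0.822, 5.82 and 277 FPKM, which was 9.23% of the sum in replicate 3. A 142-base exon (3270811 to 3270952) had 0.854, 0.725 and 19.8 FPKM. The first listed start at 3270767 carried 99.9, 99.8 and 90.1% of the first exon sum. A 51-base exon of 1 annotated transcript was included at 0.0067 FPKM or less in each library, against 632, 910 and 2707 FPKM without it. The last exon, which holds 9 of the 10 selenocysteine codons, had 2297, 2131 and 2704 FPKM. In replicates 1 and 2 this was the same value as that of the 59-base first exon, and in replicate 3 it lay close to that of the 286-base one.

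Txnrd1, whose first exons have separate starts, also differed between libraries in their use. Its upstream first exon (82859179 to 82859300) had 0.953, 2.64 and 18.3 FPKM, or 4.17, 19.4 and 74.0% of the first exon sum. The downstream first exon (82860301 to 82860630) had 21.8, 10.8 and 6.35 FPKM, or 95.2, 79.8 and 25.6%. The upstream exon was thus the minor one in replicates 1 and 2 and the major one in replicate 3, the same library in which the 59-base first exon of Selenop was not listed. The tables hold no read counts, so how reads shared by overlapping first exons were divided between them could not be examined.

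**Figure D4:**
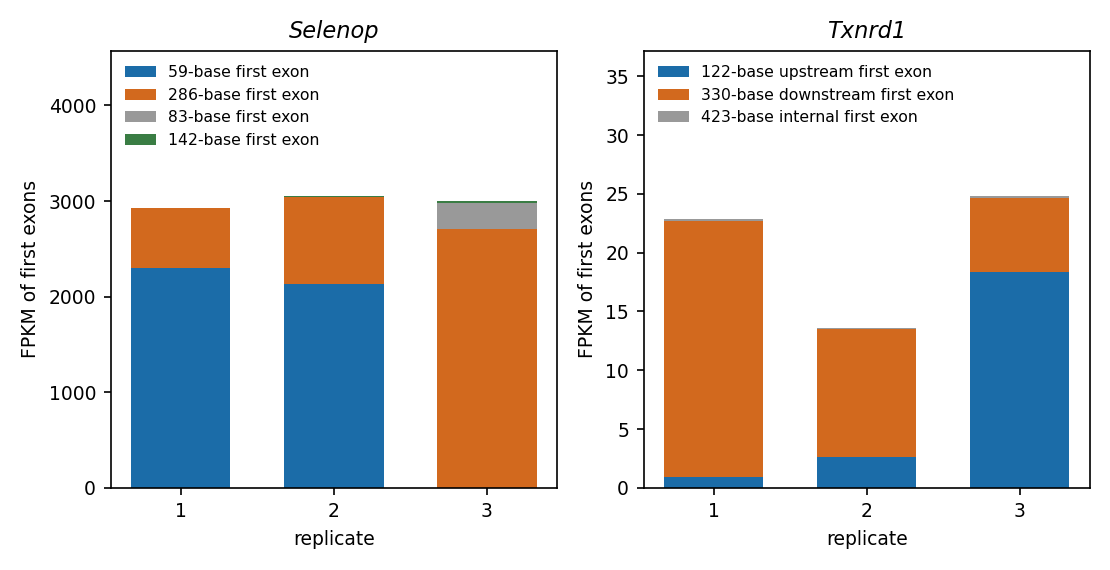
FPKM of the first exons of Selenop (left) and Txnrd1 (right) in the 3 libraries, stacked by first exon. The total height for Selenop stays between 2931 and 3048 FPKM while the 59-base exon is not listed in replicate 3, and the upstream exon of Txnrd1 has 0.953, 2.64 and 18.3 FPKM in replicates 1, 2 and 3.

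The upstream Txnrd1 transcripts were almost all joined to a 107-base exon (82860524 to 82860630), which is also the end of the downstream first exon, with 0.925, 2.61 and 18.3 FPKM. The form without it was not listed in replicate 1 and had 0.000336 and 0.000153 FPKM in replicates 2 and 3. The coding sequence of annotated transcripts from either start begins in the next exon. An internal first exon had 0.135, 0.107 and 0.102 FPKM, and 2 retained introns had at most 0.0608 FPKM, or 0.452% of both forms.

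The 250 bases before the RefSeq starts nearest to these 2 first exons are shown because the starts differed in use between libraries. The RefSeq starts lie 27 and 40 bases downstream of the listed ones. Capitals mark matches, on either strand, to 5 motifs. These are the antioxidant response element core, searched as TGACNNNGC, the CCAAT box, the GC box, searched as GGGCGG, the TATA box, searched as TATAAA, and the core site of forkhead factors, searched as TGTTTAC.
Txnrd1 upstream start (GRCm38.p6, chr10:82858956-82859205, plus strand): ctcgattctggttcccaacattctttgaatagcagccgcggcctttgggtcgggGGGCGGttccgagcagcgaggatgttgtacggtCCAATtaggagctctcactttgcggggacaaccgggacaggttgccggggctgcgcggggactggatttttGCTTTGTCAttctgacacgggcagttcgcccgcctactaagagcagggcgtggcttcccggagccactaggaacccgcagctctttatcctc
Txnrd1 downstream start (GRCm38.p6, chr10:82860091-82860340, plus strand): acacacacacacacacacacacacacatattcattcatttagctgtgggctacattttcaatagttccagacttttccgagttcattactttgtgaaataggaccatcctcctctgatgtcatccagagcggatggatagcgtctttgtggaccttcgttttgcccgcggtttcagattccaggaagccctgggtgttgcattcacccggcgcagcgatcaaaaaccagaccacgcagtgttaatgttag

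The upstream window held 1 match each to TGACNNNGC, on the minus strand and 92 to 84 bases before the start, to CCAAT and to GGGCGG, none of which overlap. The downstream window held no match to any of the 5 motifs. Of 32817 such windows in RefSeq, 10.2% held TGACNNNGC, 33.8% CCAAT, 32.7% GGGCGG, 12.4% TATAAA and 3.16% TGTTTAC. All 9 genes had at least 1 window in the table, and apart from Txnrd1 the core TGACNNNGC occurred in the window of Selenok, where it overlaps a GGGCGG match. The matches describe these letters alone.

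In the other genes 1 form dominated or the forms could be followed in single libraries, which were chosen for description after their values had been seen. In Dio1 the selenocysteine codon lies in the second exon, of 144 bases, a multiple of 3. It is printed here with the codon in capitals, since leaving it out removes the selenocysteine and keeps the reading frame.
Dio1, second exon (GRCm38, chr4:107297597-107297740, minus strand): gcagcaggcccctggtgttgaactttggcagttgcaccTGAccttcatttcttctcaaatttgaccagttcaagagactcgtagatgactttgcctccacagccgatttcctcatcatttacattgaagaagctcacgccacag

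Dio1 transcripts with this exon had 43.6, 73.1 and 29.9 FPKM. Those without it were not listed in replicate 1 and had 1.23 and 0.102 FPKM in replicates 2 and 3, or 1.66 and 0.340% of both forms. The third exon, of 200 bases, was left out at 0.137 FPKM in replicate 1 alone, or 0.314%. The exon with the selenocysteine codon was thus part of nearly all listed Dio1 signal in each library.

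Gpx4 likewise kept its selenocysteine exon. The 145-base exon 3 of 7 (80054700 to 80054844) was included at 161, 92.0 and 97.6 FPKM, and no form without it was listed. The main first exon (80053488 to 80053715) carried at least 99.7% of the first exon sum. The alternative first exon of the nuclear form, known from testis (80054037 to 80054300), had 0.482 and 0.230 FPKM in replicates 1 and 3 and was not listed in replicate 2.

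In Selenof the lower value of replicate 2 went with a second form. A 92-base exon that M21 does not annotate (144595435 to 144595526), downstream of the selenocysteine exon, was included at 61.8 FPKM in replicate 2, or 60.7% of both forms, and was not listed as included in replicates 1 and 3. Forms without it had 94.2, 40.1 and 85.2 FPKM. When both forms were summed, Selenof had 94.2, 102 and 88.9 FPKM, a mean of 95.0 ± 6.54 (SD, n = 3), which turned its order with Selenow round. The listed first exon had 94.2, 40.1 and 88.9 FPKM, which in replicate 2 equals the form without the 92-base exon. No listed first or last exon in replicate 2 reached the sum of 102 FPKM. The 50-base exon 4 of 5 (144594901 to 144594950) was left out at 3.69 FPKM in replicate 3 alone, or 4.15%.

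Gpx1, Selenok, Selenot and Selenow were listed with 1 first and 1 last exon each. For Selenow both ends had the same FPKM in every library. For Selenok the last exon had 67.1, 49.8 and 48.7 FPKM against 68.2, 50.5 and 49.4 FPKM for the first. For Selenot the last exon had 34.6, 38.1 and 42.7 FPKM against 34.6, 33.1 and 42.8 FPKM for the first. The listed last exon of Gpx1 had only 190, 203 and 213 FPKM, or 14.2, 15.0 and 15.7% of the first exon. It belongs to a second annotated transcript, and the last exon of the main transcript was not listed.

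Of the 24 genes of the mouse selenoprotein family 19 had a value and 18 averaged 1 FPKM or more. Among all genes with a value the share was 73.7%, the background for this count and those of the other lists. Outside the 9 genes the highest was Msrb1, the methionine sulfoxide reductase of the cytosol and nucleus, with 213, 210 and 191 FPKM, a mean of 205 ± 12.1 (SD, n = 3), between Gpx1 and Gpx4. Selenos, of the endoplasmic reticulum membrane, averaged 30.4 ± 1.52 FPKM and the mitochondrial Selenoo 26.1 ± 1.29 FPKM. The mitochondrial reductase Txnrd2 averaged 12.1 ± 0.793 FPKM, below Txnrd1, and Txnrd3 2.68 ± 0.746 FPKM (SD, n = 3 each).

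Lower members included Selenoi, an enzyme of phospholipid synthesis, at 7.76 ± 1.80 FPKM, Selenoh at 4.86 ± 1.90 FPKM and Gpx3, the plasma peroxidase made mainly by kidney, at 4.48 ± 1.17 FPKM. Selenom averaged 2.06 ± 1.14 FPKM (SD, n = 3 each), and Selenon was listed only in replicate 3, at 0.678 FPKM. Gpx2, Dio2, Dio3, Selenov and Sephs2 had no row, which does not show that they were silent, because the tables list only transcript events.

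**Figure D5:**
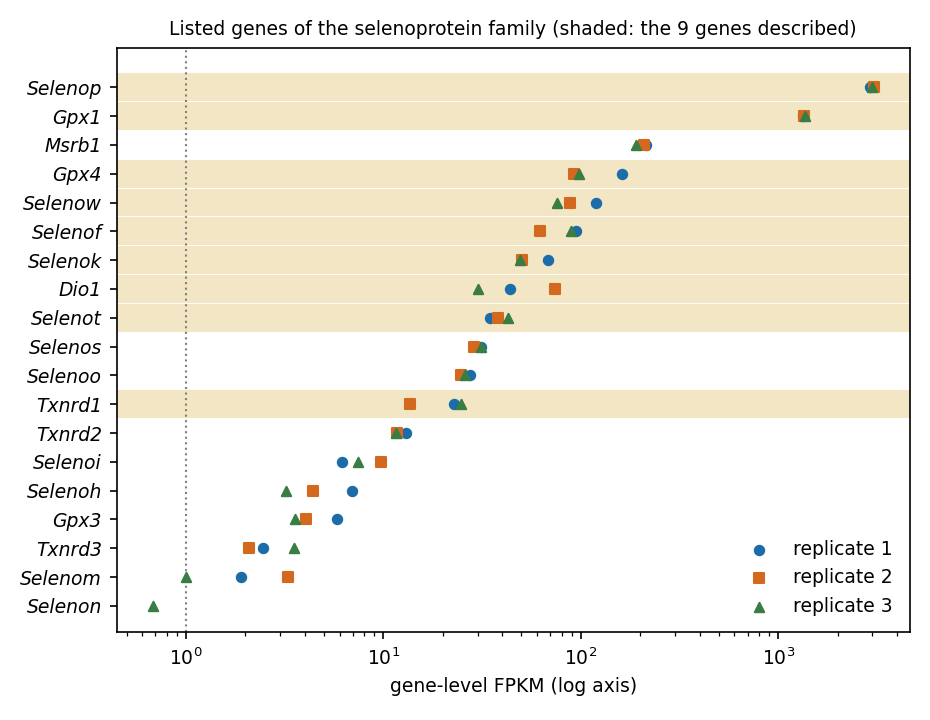
Gene-level FPKM on a log axis of the 19 listed selenoprotein genes, ordered by mean, with 1 symbol per library and the 9 genes described shaded. The dotted line marks 1 FPKM, and libraries with no listed value (Selenon in replicates 1 and 2) have no symbol.

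The genes of the list for selenocysteine synthesis and insertion were far lower than the most abundant selenoprotein genes. The median of their means was 8.46 FPKM, beside 30.4 FPKM over the 19 listed selenoprotein genes. The ranges overlapped, and Scly, at a mean of 34.1 FPKM, lay above Txnrd1 at 20.4 FPKM. The list also takes in Scly and Sephs1, and Sephs1 is counted again among the relatives without selenocysteine. Of the 9 genes on the list 8 had a value, and all 8 averaged 1 FPKM or more. Sephs2 had no row, so its level is not known here. Scly, the lyase that recovers selenium from selenocysteine, was the highest at 31.9, 29.4 and 41.0 FPKM. It was followed by the SECISBP2 relative Secisbp2l at 9.72 ± 1.11 FPKM and by Sepsecs, which forms selenocysteine on its transfer RNA, at 9.64 ± 0.855 FPKM. Eefsec averaged 8.42 ± 0.890 FPKM, Trnau1ap 8.50 ± 3.40 FPKM, the kinase Pstk 5.81 ± 0.692 FPKM and Sephs1 5.12 ± 0.461 FPKM, and Secisbp2 was the lowest at 2.98 ± 1.02 FPKM (SD, n = 3 each).

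The receptors that take up selenoprotein P were hardly listed in these libraries. Lrp2, the receptor of kidney, was listed in replicate 2 alone at 0.428 FPKM, and Lrp8, the receptor of brain and testis, had no row. Of 8 relatives without selenocysteine 7 had a value and 5 averaged 1 FPKM or more, against 73.7% of all genes with a value. Msra, which reduces the other stereoisomer of methionine sulfoxide, averaged 94.3 ± 9.36 FPKM, below Msrb1. Msrb2 averaged 6.91 ± 0.725 FPKM and Gpx7, a peroxidase of the endoplasmic reticulum, 1.49 ± 0.302 FPKM (SD, n = 3 each), while Gpx8 had 0.650 and 0.473 FPKM in replicates 1 and 2 and was not listed in replicate 3, and Gpx5 had no row.

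For each of the 9 genes the gene most like it in level was sought among the other 9305 genes that averaged 1 FPKM or more, as the one with the smallest largest difference in log2(FPKM + 1) over the 3 libraries. For Selenop this was Gc, with 2983, 2884 and 3004 FPKM and a largest difference of 0.080. For Gpx1 it was Apoh, with 1428, 1560 and 1406 FPKM and 0.20. For Dio1 it was Ubxn1, with 51.6, 60.0 and 39.4 FPKM and 0.38, the largest of the 9. For the other 6 the largest difference was at most 0.15, and the nearest gene was Zbtb11 for Gpx4, Slc9a3r1 for Selenof, Tbca for Selenok, Rnf130 for Selenot, Hint2 for Selenow and Urod for Txnrd1. The nearest genes were named by the identifier in the table, so a value may hold the events of a neighbouring gene.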

How the data were processed

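RNA sequencing of 3 normal mouse liver libraries gave 1 table per library. Per the file headers, the values deposited are FPKM for events of transcript structure: first and last exons, exons kept or skipped, introns retained and alternative ends of exons. Per the submitters' processing notes, the genome build mm9 and the tools DESeq2, HISAT2 2.0.1, HTSeq 0.6.1 and cutadapt 1.9.1 were used, with no role stated. For the program behind the tables, no name was given in the sources used here. The labels' protocols name poly(A) selection or rRNA removal, without saying which. The tables hold no counts, so depth is unknown and no counting interval is given.

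Positions were read as GRCm38: of 24 first and last exons of the 9 genes, 22 had the exact position of an annotated exon in GENCODE M21 and 24 an annotated splice site. Identical rows, 1440 to 1519 per library, were removed. Between 1.07 and 1.26% of events had no gene identifier. The gene value was the largest of the first exon sum, the last exon sum and the largest internal event, by the identifier in the table. For cell markers, and where a list gene had no row under its identifier, events inside the gene by position were used, with the identifier where position gave none. This value misses transcripts without a listed event of these kinds, and under an identifier that also takes in a neighbouring gene it holds the neighbour's events. Placing events by position left the 9 genes at the same values and gave Selenoo 24.5 in place of 26.1 FPKM.

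The libraries form 1 group, so no contrast and no test was made. Values are means with SD over 3 libraries, and spreads use log2(FPKM + 1), computed in Python 3.11.15 with pandas 2.3.3 and numpy 2.4.6. The code for gene values was tested on simulated events with known levels. That check does not cover wrong identifiers, exon shares or placement by position. The genes and lists were chosen with earlier results of these data known. Named were the 9 genes, the listed selenoprotein genes, the 3 highest and the lowest of other lists, and exons whose minor form held at least 5% in 2 libraries. Others were named after their values were seen. Alternatives were first or last exons alone, identical rows kept, placement by position, other minima and pseudocounts, exons taken singly, leaving out each replicate and, added after seeing the data, both forms of an event summed.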

Additional observations from a re-analysis of the deposited data

How the results depend on the processing

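The median of the 9 mean levels was 81.7 FPKM. With last exons alone it was 55.2 FPKM, with Dio1, which then had no value, counted as 0. Last exons alone moved 5 of the 9 genes by more than their SD: Selenop to 2377 FPKM, Gpx1 to 202, Selenof to 0.0935, Txnrd1 to 0.0384 and Dio1 to no value, since its last exon was not listed. The share of the 9 genes in the summed FPKM was 1.65% with first exons alone and 1.13% with last exons alone, and 5 in place of 8 selenocysteine synthesis and insertion genes reached 1 FPKM with last exons alone. The median SD of the 9 genes was 0.15 with last exons alone and 0.26 with both forms summed, in place of 0.33. The value of 0.15 also counts Dio1 as 0 and takes in Selenof and Txnrd1 near 0 FPKM. It therefore cannot show a smaller spread. Leaving out 1 replicate gave a median SD of 0.11 to 0.30 and between 1 and 3 in place of 4 first exons with a minor form of at least 5% in 2 libraries, with 1 without replicate 2 and 2 without replicate 3. The family count was between 14 and 19 and the count of neighbours beyond their spread between 4 and 7 over all settings. Keeping identical rows, placing events by position and summing both forms moved none of the 9 genes by more than their SD. In the main setting the median SD over all 12628 genes with a value was 0.23. No paired analysis was possible because the libraries form 1 group and no second group shares their replicate numbers; the differences between genes were taken within each library. With 3 libraries and no read counts, small differences between genes or forms were not resolvable.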

Other observations

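Partners of the 9 genes were measured as well. All 14 thioredoxin and glutathione genes averaged 1 FPKM or more, and the median of their means was 60.7 FPKM. The peroxiredoxins Prdx1, at 243 ± 3.50 FPKM, and Prdx6, at 201 ± 21.3 FPKM, and thioredoxin itself (Txn1), at 133 ± 29.4 FPKM, were the highest, and Glrx2 was the lowest at 3.87 ± 1.90 FPKM (SD, n = 3 each). Txnip, the inhibitor of thioredoxin, had 70.2, 33.0 and 75.2 FPKM and like Txnrd1 was lowest in replicate 2. Gsr, the glutathione reductase, averaged 18.4 ± 1.53 FPKM, close to Txnrd1.

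All 7 partners in the endoplasmic reticulum averaged 1 FPKM or more, led by the segregase Vcp at 32.7 ± 12.8 FPKM, Selenos and Dnajc3 at 29.8 ± 5.70 FPKM, with Uggt1, the partner of Selenof, lowest at 6.09 ± 1.19 FPKM (SD, n = 3 each). For Dnajc3 no event lay inside the annotated gene by position, so its value is that of its identifier alone. Of 8 thyroid hormone genes 7 had a value. Transthyretin (Ttr), a carrier of thyroxine, averaged 3233 ± 374 FPKM, the iodotyrosine deiodinase Iyd, an enzyme without selenocysteine, 49.8 ± 2.56 FPKM, near the mean of Dio1 but with a smaller SD, the thyroxine-binding globulin Serpina7 41.6 ± 18.9 FPKM, and the receptor Thrb was lowest at 3.64 ± 1.09 FPKM (SD, n = 3 each). No event lay inside the annotated Ttr gene by position, so its value too is that of its identifier alone. Thrsp had no row.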
